A study of Homo sapiens with 19 samples.

Results

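HCT116, a widely used human colorectal carcinoma line, was compared with the other 4 lines of its group in a panel of 10 colon cancer cell lines measured on 19 Affymetrix expression arrays. By their labels, HCT116, RKO, SW48, LIM2405 and LS174T are microsatellite unstable (MSI), which makes 5 MSI lines, and the 5 microsatellite stable (MSS) ones are HT29, T84, CACO2, SKCO1 and HCC2998. The members are the 2 arrays titled HCT116, from cultures E1 and E2, of 19 arrays in all, and they were set against the 8 arrays of the 4 other MSI lines. All lines were established cancer lines grown untreated in DMEM with 10% FBS and harvested in exponential growth, and each line here is 1 line of 1 tumour, so HCT116 itself has no replicate beyond its duplicate cultures. T84 has 1 array and every other line has 2. Values are log2 RMA values of probe sets, and each of 19775 genes is represented by its brightest single-gene probe set. The median of all deposited values is 5.67, and values under it lie near the array background, where differences are compressed.

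Mismatch repair corrects the slips that DNA polymerase makes in short repeats, and cells that have lost it are unstable at microsatellites. Lines that share this defect differ in much else: in epithelial differentiation, in the genes silenced by promoter methylation and in which germline, embryonic or neural genes are active. Such tissue-restricted genes are normally shut in colon epithelium, and their presence or absence is part of what sets 1 cancer line apart from another.

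The identity of the line was checked first against colorectal epithelium markers. General epithelial genes were high in HCT116. EPCAM, an epithelial adhesion molecule, read 13.09 and 13.25 in the 2 cultures and 5.84 to 13.51 (median 13.07) on the 8 other MSI arrays. CDH1, which encodes E-cadherin, read 11.96 and 11.92 against 3.49 to 13.11 (median 12.70). KRT8, KRT18 and KRT19, keratins of simple epithelia, had HCT116 means of 12.49, 13.68 and 12.90. In both EPCAM and CDH1 the low end is RKO, and HCT116 lay among SW48, LIM2405 and LS174T or just under them. Markers of differentiated intestine were low in HCT116: VIL1, the brush border protein villin, read 5.63 and 5.79, LGALS4, an intestinal galectin, 4.79 and 5.14, and CDH17, an intestinal cadherin, 5.54 and 5.14. GPA33 read 5.55 and 5.63, KRT20 5.97 and 6.002 and CEACAM5, the carcinoembryonic antigen, 4.24 and 4.83. These markers were also low in RKO, SW48 or LIM2405, while LS174T reached 13.45 for LGALS4, 13.47 for CDH17 and 12.28 for CEACAM5. By the rule on duplicates given below, limma put 0 of the 12 markers apart from all 4 lines, and 0 at unadjusted p-values. The label is thus borne out for an epithelial line, and the markers of differentiated colon epithelium were at or near background in it.

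The arrays of HCT116 were close duplicates. Over genes, the 2 cultures correlated at r = 0.9974, with a median absolute difference of 0.106; the other pairs of MSI cultures differed by 0.113 to 0.245, LS174T being the widest. The RNA quality measure of 3′ minus 5′ actin probe sets was 0.69 and 0.77 in HCT116 and 0.33 to 2.81 on the other MSI arrays, with both LS174T arrays (2.81 and 1.81) the highest. The part of RNA quality in the differences below was not tested, so counts are also given without each line. HCT116 correlated over genes with SW48 at 0.9328, with LIM2405 at 0.9316, with RKO at 0.9214 and with LS174T at 0.9102, which describes these libraries only.

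A pair of questions was asked of each gene. The first was whether HCT116 differed from each of the 4 other MSI lines beyond the spread between duplicate cultures. In a limma fit of the 10 arrays, a gene was called apart where all 4 pairs had a Benjamini-Hochberg adjusted p under 0.05 in the same direction. By this rule 1119 genes (5.66% of 19775) were apart, 628 higher in HCT116 (3.18%) and 491 lower (2.48%). Of these, 288 higher genes (1.46%) and 165 lower genes (0.834%) lay at least 1 log2 beyond the nearest of the 4 lines. These p-values measure the spread between duplicates of a line and nothing else. Genes apart by this rule were chosen for lying beyond all 4 lines. That their HCT116 arrays do not overlap the others is therefore no further support. By line means without a test, HCT116 was above all 4 lines in 13.9% of genes and below all 4 in 17.4%. The second question was whether HCT116 differed from the other lines beyond the spread between those lines. In a limma fit of the 5 line means, HCT116 minus the mean of the other 4, 78 genes (0.394%) had an adjusted p under 0.05: 74 were higher in HCT116 (0.374%) and 4 lower (0.0202%). All 78 were also apart by the first rule. HCT116 is 1 line in this fit and is assumed to vary like the other 4.

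The 78 calls needed all 4 comparison lines. Without RKO, SW48, LIM2405 or LS174T no gene passed, with smallest adjusted p-values in limma of 0.0951, 0.115, 0.0689 and 0.0503, while 483 to 628 genes were higher and 398 to 469 lower at an unadjusted p under 0.05. All 78 genes had an unadjusted p under 0.05 in limma in each of these 4 fits. The 78 were chosen for small p-values in the same line means, so this is no further support. In 66 of the 74 higher genes all 4 other lines lay under 5.67, and the median SD of the other 4 lines was 0.147 in those 74 genes against 0.328 over all genes. The fit over lines therefore passed mainly genes that were at background in the 4 others and present in HCT116. The rule on duplicates carries no such limit to dim genes, and its count was 1735 without RKO, 1559 without SW48, 1332 without LIM2405 and 2017 without LS174T, each of which asks for 3 pairs in place of 4. With 1 HCT116 array only it was 706 or 707.

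**Figure D1:**
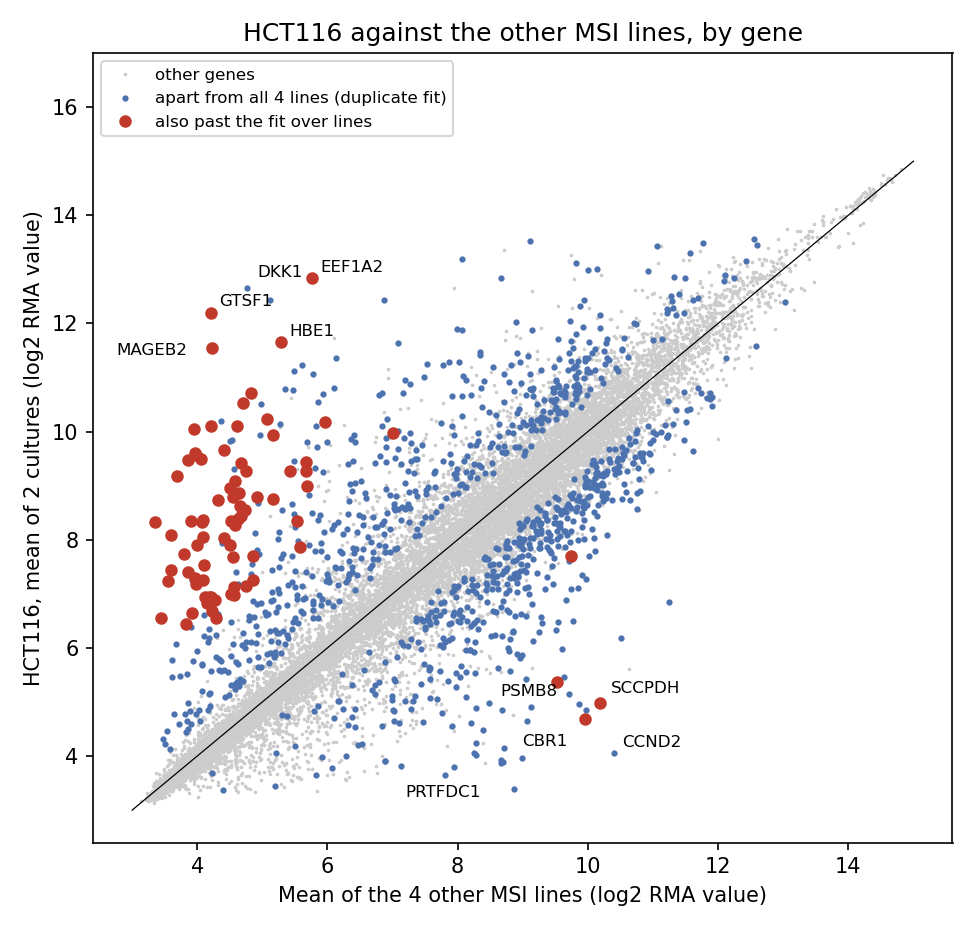
Each point is 1 of the measured genes, with the mean of the 4 other MSI lines on the x axis and the mean of the 2 HCT116 cultures on the y axis, both as log2 RMA values; the line marks equal values. Blue points are apart from all 4 lines in the duplicate fit (1119 with the red ones) and red points also pass the fit over lines (78), 74 of them above the line and mostly at the left edge of the plot, where the other lines are at background.

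The 4 largest differences among genes past the fit over lines were in GTSF1, MAGEB2, EEF1A2 and HBE1, each bright in HCT116 and near background in the 4 other lines. GTSF1, a germline protein of the PIWI-piRNA pathway, which silences transposons, read 12.23 and 12.17 in the HCT116 cultures and 3.77 to 4.98 (median 4.10) on the 8 other MSI arrays. MAGEB2, a cancer-testis antigen encoded on the X chromosome, read 11.55 and 11.53 against 3.84 to 4.80 (median 4.13). No array of another MSI line came near HCT116 in either gene, and the MSS arrays, at 3.73 to 4.27 and 3.65 to 4.08, were at background too. The differences from the mean of the other lines were 7.99 (SE 0.40, limma adjusted p = 0.0122) for GTSF1 and 7.32 (SE 0.38, limma adjusted p = 0.0122) for MAGEB2. HBE1, the embryonic epsilon chain of haemoglobin, read 11.75 and 11.57 against 4.89 to 5.73 (median 5.32), a difference of 6.38 (SE 0.33, limma adjusted p = 0.0122). EEF1A2, a translation elongation factor otherwise found in muscle and neurons, read 12.99 and 12.68 against 5.58 to 5.86 (median 5.78), a difference of 7.07 (SE 0.17, limma adjusted p = 0.0108). EEF1A2 was also present in some MSS lines, where arrays ran from 5.52 to 11.05, whereas HBE1 stayed at 4.47 to 5.30 there.

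Among the other cancer-testis antigens, 1 of 37 measured members was apart in HCT116, MAGEB2 itself, or 2.7% against 3.18% of all genes, and 30 of the 37 had HCT116 values under 5.67. PIWIL4, a PIWI protein of the pathway in which GTSF1 acts (chosen after its values were seen), went the other way: it read 4.63 and 5.08 in HCT116 and 5.77 to 8.10 (median 7.21) on the other MSI arrays, with a gap of -1.10 to LIM2405 (largest of the 4 adjusted p-values in limma 0.00516).

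The promoters of the 2 germline genes at the top are shown with those of 2 genes that were lower in HCT116, SCCPDH and CBR1, because all 4 went from background to bright or the reverse between lines. Each sequence runs from 250 bases before to 50 bases after the gene's start, 5′ to 3′ on the gene's strand, from RefSeq on GRCh38.p14, with each CG dinucleotide, the target of DNA methylation, in capitals.
GTSF1 (chr12:54473553-54473852, minus strand): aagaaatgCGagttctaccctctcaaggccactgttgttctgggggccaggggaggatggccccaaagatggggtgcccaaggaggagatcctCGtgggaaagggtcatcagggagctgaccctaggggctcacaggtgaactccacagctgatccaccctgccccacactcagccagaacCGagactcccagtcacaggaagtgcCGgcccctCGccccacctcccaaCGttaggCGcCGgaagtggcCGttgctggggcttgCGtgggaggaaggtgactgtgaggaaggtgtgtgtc
MAGEB2 (chrX:30215313-30215612, plus strand): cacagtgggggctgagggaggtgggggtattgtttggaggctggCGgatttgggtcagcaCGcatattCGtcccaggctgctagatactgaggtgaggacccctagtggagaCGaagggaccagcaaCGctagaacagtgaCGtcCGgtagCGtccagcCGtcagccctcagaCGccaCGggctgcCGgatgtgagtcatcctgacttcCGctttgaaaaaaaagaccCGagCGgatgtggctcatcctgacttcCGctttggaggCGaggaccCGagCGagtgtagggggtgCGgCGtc
SCCPDH (chr1:246724159-246724458, plus strand): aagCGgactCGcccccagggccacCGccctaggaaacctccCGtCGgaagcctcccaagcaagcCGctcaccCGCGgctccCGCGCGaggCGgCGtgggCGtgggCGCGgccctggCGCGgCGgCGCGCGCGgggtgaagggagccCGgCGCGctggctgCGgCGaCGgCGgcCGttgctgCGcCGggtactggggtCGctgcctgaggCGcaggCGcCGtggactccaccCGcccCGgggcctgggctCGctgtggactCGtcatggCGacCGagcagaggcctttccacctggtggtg
CBR1 (chr21:36069774-36070073, plus strand): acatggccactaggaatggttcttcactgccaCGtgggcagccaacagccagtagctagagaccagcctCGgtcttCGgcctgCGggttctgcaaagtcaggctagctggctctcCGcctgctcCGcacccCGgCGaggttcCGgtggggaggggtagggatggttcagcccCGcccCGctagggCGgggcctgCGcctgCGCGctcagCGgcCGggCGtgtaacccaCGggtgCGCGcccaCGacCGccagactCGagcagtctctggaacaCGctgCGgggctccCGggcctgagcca
The motif searched was CG, which reads the same on both strands. GTSF1 had 10 in 300 bases and MAGEB2 had 21, and 73.5% and 54.7% of the promoters of measured genes hold as many or more. SCCPDH had 43 and CBR1 27, shares of 6.93% and 39%. A promoter was found for 15360 of 19741 genes. The median CG count was 22 over all of them, 25 over 498 genes apart and higher in HCT116 and 28 over 416 genes apart and lower. It was 26 where all 4 other MSI lines were over the median of deposited values and 8 where all 4 were under it, so the CG count differed with the level of a gene as such. Methylation was not measured here.

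Several genes bright in HCT116 and near background in the other MSI lines encode secreted proteins. DKK1, a secreted inhibitor of Wnt signalling, read 12.66 and 12.66 in HCT116 and 3.61 to 7.36 (median 4.32) on the other MSI arrays. LS174T was the nearest line, at 6.62, which left a gap of 6.04 (largest pair adjusted p in limma 1.74e-06), and the spread this gave the other lines kept DKK1 out of the genes past the fit over lines, where its difference was 7.89 (SE 1.15, limma adjusted p = 0.22). Some MSS arrays were as high, up to 13.67. CST6, cystatin E/M, an inhibitor of cysteine proteases, read 10.77 and 10.65 against 4.56 to 5.20 (median 4.81), a difference of 5.89 (SE 0.17, limma adjusted p = 0.0112). NPW, the precursor of neuropeptide W, read 9.96 and 9.26 against 3.70 to 4.33 (median 3.98), a difference of 5.64 (SE 0.26, limma adjusted p = 0.0112). For CST6 and NPW no other line of either group overlapped HCT116.

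OSMR, the receptor subunit for oncostatin M, a cytokine of the interleukin-6 family, read 10.05 and 10.15 in HCT116, 4.19 to 4.88 (median 4.63) on the other MSI arrays and 4.06 to 4.87 on the MSS arrays. Its difference was 5.49 (SE 0.21, limma adjusted p = 0.0112), and HCT116 was the 1 line of 10 with OSMR above background. Its other 2 probe sets went the same way, by 2.04 and 4.26. The related genes were looked up after these values were seen. IL6ST, the gp130 subunit that pairs with OSMR, was bright in all 5 MSI lines, at 10.11 and 10.28 in HCT116 and 9.47 to 11.76 (median 10.03) elsewhere, and HCT116 lay within the range of the others. OSM, the ligand, was near background throughout, at 5.91 and 5.96 against 5.77 to 6.33 (median 6.16). For LIFR, the related receptor subunit, the probe sets disagreed. The one that represents it was near background, at 5.52 and 5.24 against 5.26 to 5.80 (median 5.42). Another was well above background in HCT116 alone of the 5 MSI lines, with a mean of 7.37 against 3.57 to 3.72 in the other 4, and the level of LIFR in HCT116 is therefore not settled here.

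TNFSF18, the cytokine known as GITR ligand, and TNFRSF18, its receptor, which modulate T cell activation, were both among the 74 higher genes; the pair was noticed after its values were seen. TNFSF18 read 7.89 and 7.93 in HCT116 and 4.39 to 4.63 (median 4.50) on the other MSI arrays, a difference of 3.40 (SE 0.17, limma adjusted p = 0.0122). TNFRSF18 read 8.86 and 8.64 against 5.000 to 5.54 (median 5.12), a difference of 3.59 (SE 0.21, limma adjusted p = 0.0156). Both were above all 9 other lines, whose MSS arrays stayed within 4.28 to 4.73 and 4.77 to 5.49.

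The remaining genes of the top 15 by difference in the fit over lines had the same form. QKI, an RNA-binding protein that regulates splicing, read 9.97 and 10.13 in HCT116 against 3.58 to 4.58 (median 3.86). ADGRF1, an adhesion G protein-coupled receptor, read 10.15 and 10.05 against 3.88 to 4.53 (median 4.23). ELFN2, a leucine-rich repeat membrane protein, read 10.51 and 10.56 against 4.46 to 4.95 (median 4.62). The limma adjusted p-values of these genes were 0.0112, 0.0112 and 0.0112, and in none of them did another MSI array come near HCT116. RASGEF1A, a guanine nucleotide exchange factor, read 9.51 and 9.63 against 3.78 to 4.40 (median 3.96), ZNF518B, a zinc finger protein, 9.57 and 9.38 against 3.53 to 4.47 (median 3.77), and TBC1D9, a TBC domain protein, 9.12 and 9.23 against 3.32 to 4.12 (median 3.65). COL12A1, a fibril-associated collagen, read 9.46 and 9.52 against 3.85 to 4.29 (median 4.06), and FERMT2, the integrin activator kindlin-2, 9.79 and 9.53 against 3.89 to 5.09 (median 4.40). The differences of these 5 genes were 5.59, 5.62, 5.49, 5.43 and 5.25, with adjusted p-values in limma from 0.0112 to 0.0165. All 8 genes were above background in at least 1 MSS line as well. The highest MSS arrays read 10.98 for QKI, 9.42 for ZNF518B, 9.17 for FERMT2, 8.80 for TBC1D9, 8.62 for COL12A1, 8.31 for RASGEF1A, 7.65 for ADGRF1 and 7.51 for ELFN2. Over the 74 higher genes, 49 were also above all 9 other lines in a duplicate fit of the whole panel (1.34% of all genes were), and in 20 some MSS line was at or above HCT116.

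Probe sets of 1 gene did not always go together. Of 111 named genes apart in HCT116, 62 had several single-gene probe sets. In 27 of these every other one differed from the mean of the 4 lines in the same direction by at least 0.5 log2, a limit set after the values were seen. In the remaining 35 at least 1 did not, and in 17 no other one did: AUTS2, CASD1, COL4A5, EFNA2, ERAP1, FOXA1, FSTL1, HBE1, HNF4G, KRT7, LOXL2, LRIG1, LTBP1, MSN, SMAD9, SPRY1 and TMEFF2. The calls of those 17 rest on 1 probe set, as do those of the named genes outside the 62, which have only 1. In 11 of the 35 a probe set that did not follow was over 5.67 in some MSI line, so it was not simply dim. Following in this way does not ask that HCT116 lie beyond each line. Probe sets that followed had LS174T at 10.87 and HCT116 at 10.12 for CD44, and LIM2405 at 7.76 and HCT116 at 6.98 for CDKN2A. The second probe set of HBE1 differed by -0.10, near background in all lines. Of the 10 probe sets of QKI, the differences ran from -0.22 to 6.10, and the 2 brightest gave 6.10 and 5.66. COL12A1 had 4 others, at 0.00, 3.95, 2.58 and -0.09. ZNF518B had 2 others, at 0.18 and 0.96, and TBC1D9 2, at 0.99 and -0.15. ELFN2 had 3 others, at 2.66, 0.20 and 0.04, and ADGRF1 3, at 6.07, 4.49 and 0.70. GTSF1, MAGEB2, EEF1A2 and NPW are each measured by 1 probe set, as are DKK1, PRTFDC1, CBR1 and NCR3LG1.

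**Figure D2:**
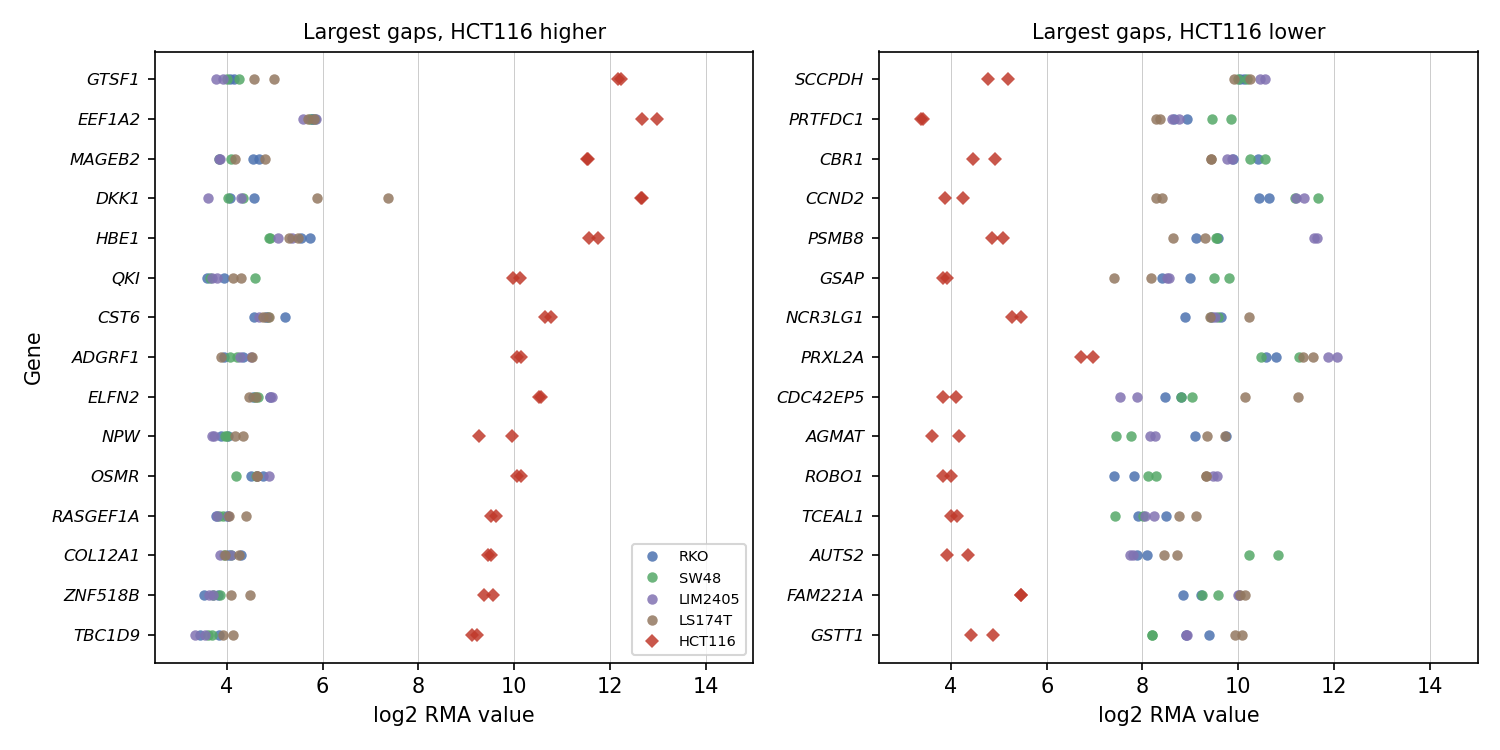
Each marker is 1 array, with the log2 RMA value on the x axis and 1 gene per row; red diamonds are the 2 HCT116 cultures and circles the 8 arrays of the other MSI lines. The left panel has the 15 genes with the largest gap to the nearest other line among genes higher in HCT116, from 7.43 for GTSF1 down to 5.15 for TBC1D9, and the right panel the 15 among genes lower in HCT116, from -5.10 for SCCPDH to -3.56 for GSTT1. The rows were chosen for this gap, and in none do the diamonds overlap the circles.

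Genes missing from HCT116 and present in the other lines included the enzymes SCCPDH and CBR1. SCCPDH, a saccharopine dehydrogenase-like oxidoreductase, read 4.77 and 5.19 in HCT116 and 9.92 to 10.57 (median 10.15) on the other MSI arrays, and CBR1, a carbonyl reductase that uses NADPH, read 4.46 and 4.91 against 9.43 to 10.57 (median 9.87). HCT116 was under 5.67 in both genes while all 9 other lines were well above it, with MSS arrays at 7.11 to 10.27 and 8.52 to 10.23. Their differences were -5.21 (SE 0.26, limma adjusted p = 0.0122) and -5.26 (SE 0.42, limma adjusted p = 0.0359). NCR3LG1, also called B7-H6, a ligand of an activating receptor of natural killer cells, read 5.46 and 5.27 against 8.88 to 10.22 (median 9.48), a difference of -4.15 (SE 0.27, limma adjusted p = 0.0188). ARFGEF3, a protein of the ARF exchange factor family, was the fourth gene lower in the fit over lines, at 7.76 and 7.62 against 9.51 to 9.96 (median 9.76), a difference of -2.05 (SE 0.17, limma adjusted p = 0.0435). ARFGEF3 was still bright in HCT116, and its 3 dimmer probe sets differed from the mean of the 4 lines by -1.18, -0.67 and -0.87. In the first of these HCT116, at 5.46, was above RKO, at 5.29, and LS174T, at 4.91. In the second it was above LS174T (5.24 against 5.13), and in the third just under it (4.77 against 4.83). The dimmer probe sets therefore did not clearly place HCT116 below all 4 lines. SCCPDH, CBR1 and NCR3LG1 were below all 9 other lines in the duplicate fit of the whole panel (0.718% of all genes were).

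The other large losses passed the rule on duplicates and not the fit over lines. PRTFDC1, a phosphoribosyltransferase domain protein related to HPRT, read 3.37 and 3.41 in HCT116 and 8.27 to 9.86 (median 8.71) on the other MSI arrays, a gap of -4.93 to LS174T (largest pair adjusted p in limma 1.51e-08; adjusted p over lines 0.0724). CCND2, cyclin D2, a partner of the G1 kinases, read 3.87 and 4.25 against 8.28 to 11.67 (median 10.92), a gap of -4.29 to LS174T (largest pair adjusted p in limma 9.26e-08). Its 3 other probe sets differed from the mean of the 4 lines by -3.72, -0.69 and -1.68. In the last of these HCT116, at 4.29, was above LS174T, at 3.995, both near background, so the call did not hold there. For CCND2 some MSS arrays were as low as HCT116, down to 3.77. GSAP, the gamma-secretase activating protein, read 3.92 and 3.84 against 7.42 to 9.80 (median 8.54), and PRXL2A, a peroxiredoxin-like protein, 6.72 and 6.97 against 10.48 to 12.07 (median 11.31). ROBO1, a receptor for Slit guidance proteins, read 3.84 and 4.01 against 7.40 to 9.56 (median 8.81), and GSTT1, a glutathione S-transferase, 4.87 and 4.42 against 8.20 to 10.08 (median 8.92). In each of these genes, chosen for being apart, both HCT116 arrays lay below all 8 others. Some MSS arrays were near background too in ROBO1, down to 4.05, and in GSTT1, down to 4.65. CDC42EP5, a Cdc42 effector, AGMAT, an agmatinase, TCEAL1, AUTS2 and FAM221A were also among the 15 largest gaps, at -3.74, -3.72, -3.66, -3.63 and -3.56. AGMAT's difference of -4.80 was -1.97 in a second probe set and 0.03 in the third, the 1 of the 3 whose name marks no shared sequence, and AUTS2's 2 dim probe sets differed by -0.11 and -0.19.

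Interferon-stimulated genes, which restrict viruses and sense their RNA, were the list with the largest share apart in HCT116. Of 41 measured members 15 were apart and higher (36.6% against 3.18% of all genes) and 1 was apart and lower (2.44% against 2.48%). The median difference of the list was 0.58, against -0.03 over all genes, and 0 of its members passed the fit over lines in limma, where 11 were higher and 0 lower at an unadjusted p under 0.05. IFIT1, which binds foreign RNA, read 10.19 and 10.09 in HCT116 and 4.12 to 7.30 (median 4.81) on the other MSI arrays, and IFIT2, of the same family, 9.86 and 10.02 against 5.31 to 7.79 (median 6.12). LIM2405 was the nearest line in both, at 7.18 and 7.63, and the gaps were 2.96 and 2.31 (largest pair adjusted p in limma 8.62e-07 and 1.70e-04). IFI6 read 9.99 and 9.64 against 5.49 to 7.29 (median 6.34), and HERC5, the ligase that attaches ISG15 to proteins, 8.10 and 8.16 against 4.44 to 5.75 (median 4.71). IFITM2, a membrane protein that blocks virus entry, was bright in all the MSI lines and read 12.98 and 12.97 against 9.97 to 11.62 (median 11.03). The other 10 higher members were IFIT3, IFIT5, IFITM3, ISG15, OAS3, PLSCR1, RIGI, IRF1, IFI35 and UBE2L6, with line means in HCT116 from 8.49 for IFIT3 to 13.48 for IFITM3 and gaps from 0.60 to 1.28.

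The interferon list did not move as a whole. MX1, a dynamin-like antiviral GTPase, was apart and lower, with an HCT116 mean of 6.11 against 6.80 in SW48, the nearest line, and 9.59 in RKO, the highest. OAS1, RSAD2, CMPK2, IFI27 and IFI44L, which are commonly induced with IFIT1, had HCT116 means of 5.33, 4.68, 5.58, 6.95 and 4.01 and were not apart. In 11 of the 41 members HCT116 was under 5.67. Against the whole panel, 2 of the 41 were above all 9 other lines (1.34% of all genes were), and MSS arrays reached 11.16 for IFIT1 and 10.59 for IFI6. With a gap of at least 1 log2, 8 of the 41 were apart and higher in place of 15, by a rule that 1.46% of all genes passed.

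**Figure D3:**
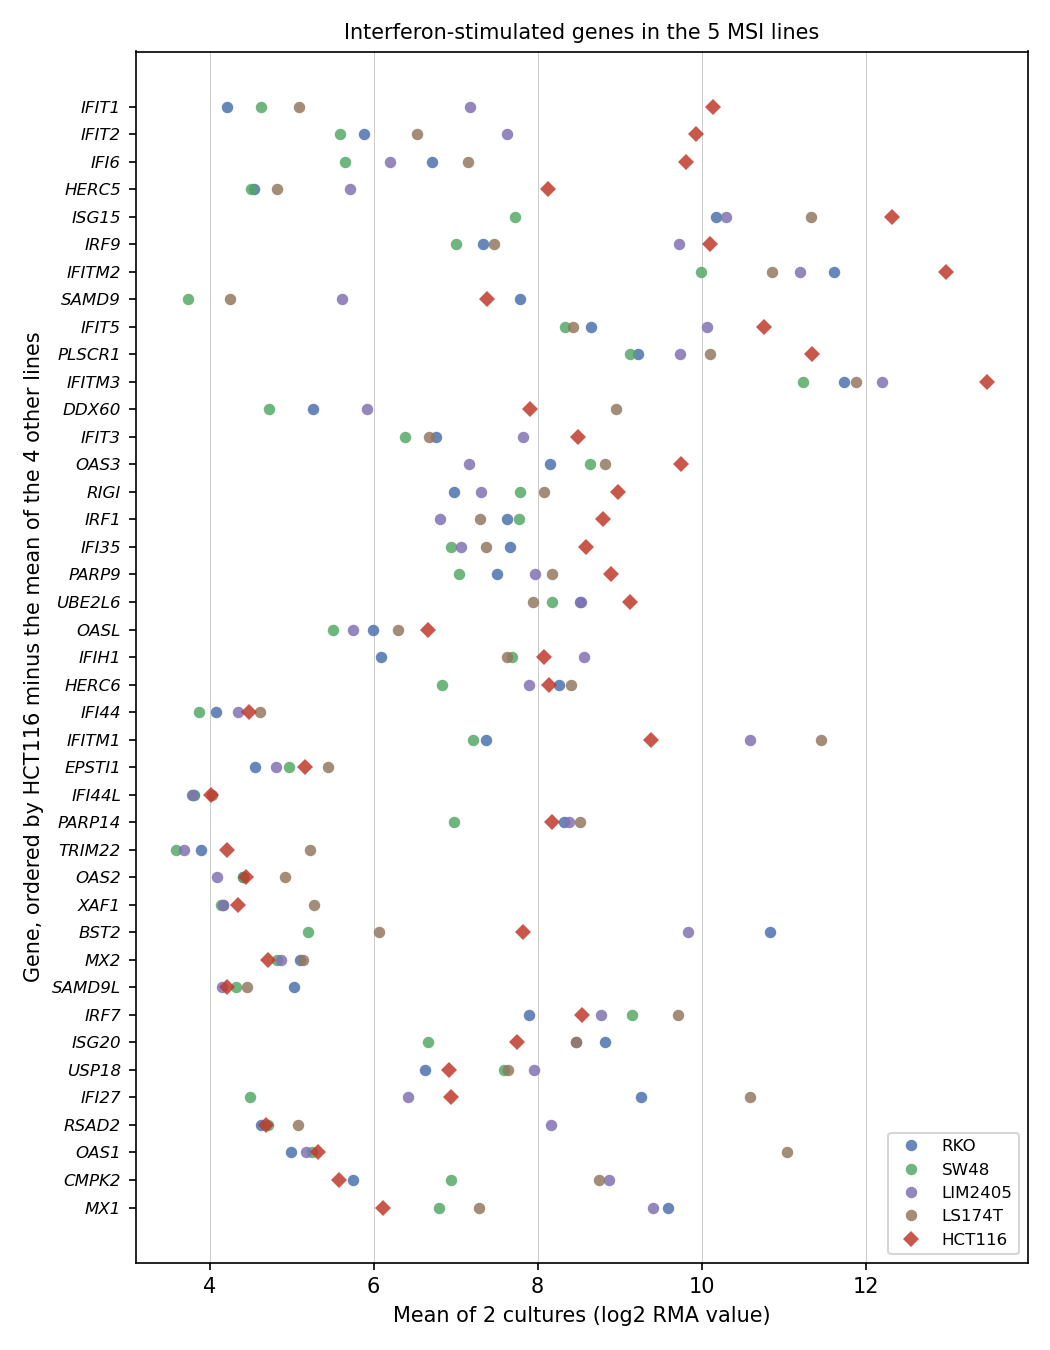
Each row is 1 of the 41 measured interferon-stimulated genes and each marker the mean of the 2 cultures of a line (log2 RMA value on the x axis), with HCT116 as a red diamond; genes are ordered by HCT116 minus the mean of the 4 other lines. The diamond is the rightmost marker in 18 rows, among them IFIT1, IFIT2, IFI6 and HERC5, and the leftmost in 3, among them MX1 at the bottom.

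In antigen presentation, 5 of 30 measured genes were apart and higher (16.7% against 3.18% of all genes) and 1 lower (3.33% against 2.48%). The lower gene was PSMB8, a catalytic subunit of the immunoproteasome, which makes peptides for MHC class I, and its gap was also among the 15 largest of the lower genes. PSMB8 read 5.08 and 4.85 in HCT116 and 8.64 to 11.64 (median 9.55) on the other MSI arrays, a gap of -4.01 to LS174T (largest pair adjusted p in limma 4.31e-07), and it was below all 9 other lines. PSMB10, another immunoproteasome subunit, went the other way, at 9.35 and 9.12 against 6.06 to 8.28 (median 7.49), a gap of 1.21 (largest pair adjusted p in limma 9.94e-04). PSMB9 and TAP1, which lie beside PSMB8 in the MHC region and were looked up for that reason, were not apart. PSMB9 read 8.84 and 8.61 in HCT116 against 5.97 to 8.35 (median 7.66), and TAP1, the peptide transporter, 8.82 and 8.82 against 8.60 to 10.53 (median 9.13). PSMB8 is measured by 1 probe set. HLA-DMA, which loads peptides on MHC class II, read 7.91 and 7.72 against 4.47 to 5.88 (median 4.79), a gap of 2.47. HLA-DMB, HLA-DRA and the peptidase ERAP1 were the other higher members, with gaps of 0.53, 0.73 and 0.70.

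Genes of mesenchymal cells and of the epithelial-mesenchymal transition (EMT) were the next list by share. Of 36 measured, 10 were apart and higher (27.8% against 3.18% of all genes) and 1 lower (2.78% against 2.48%), with a median difference of 0.17. By line means without a test, 14 of the 36 were above all 4 lines, against 2751 of all 19775 genes (13.9%). BDNF and TWIST1 passed the fit over lines. BDNF, a neurotrophin, read 9.36 and 9.19 in HCT116 and 5.04 to 5.94 (median 5.41) on the other MSI arrays, a difference of 3.85 (SE 0.32, limma adjusted p = 0.0391), and TWIST1, a transcription factor that drives EMT, read 6.69 and 6.62 against 3.75 to 4.42 (median 3.86), a difference of 2.73 (SE 0.23, limma adjusted p = 0.0444). Both were above all 9 other lines, though TWIST1 stayed near the median of all values. CAV1, the coat protein of caveolae, read 12.86 and 12.82 against 5.24 to 11.05 (median 9.16), and MSN, moesin, which links actin to the membrane, 9.74 and 9.91 against 3.83 to 6.80 (median 3.96). LOXL2, a lysyl oxidase that cross-links collagen, read 8.43 and 8.46 against 5.05 to 6.84 (median 5.86). Their gaps were 2.20, 3.69 and 1.63 (largest pair adjusted p in limma 1.66e-04, 1.31e-05 and 8.50e-04), and the other probe set of MSN differed by -0.02. The remaining higher members were CD44, FN1, LGALS1, S100A4 and TPM2, with gaps of 0.70, 0.88, 1.37, 1.15 and 1.45. TPM1, a tropomyosin, was lower, with a gap of -0.71. VIM, the mesenchymal filament protein vimentin, had an HCT116 mean of 6.39, against 7.24 in RKO and 10.69 in LIM2405, and ZEB1, a repressor of CDH1, 4.57 against 9.57 in RKO.

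Of 36 epithelial junction and keratin genes, 5 were apart and higher (13.9%, against 3.18% of all genes) and 0 were apart and lower, where 2.48% of all genes were (limma; 0 lower at unadjusted p-values too). KRT23, a keratin, read 7.53 and 7.58 in HCT116 and 4.37 to 5.28 (median 4.86) on the other MSI arrays. PPL, the desmosome-associated protein periplakin, read 11.51 and 11.43 against 5.57 to 9.94 (median 8.86), and CDH3, P-cadherin, 11.42 and 11.47 against 6.09 to 10.39 (median 9.56). Their gaps were 2.37, 1.55 and 1.10 (largest pair adjusted p in limma 1.09e-05, 1.89e-05 and 1.23e-04). CGN, the tight junction protein cingulin, and KRT7 had smaller gaps of 0.60 and 0.72, and the call for KRT7 did not hold in its next brightest probe set, which differed by -0.14. Genes of extracellular matrix also stood among the 74: COL6A2 read 9.50 and 9.39 against 5.46 to 5.85 (median 5.67), FSTL1, a secreted glycoprotein, 9.46 and 9.38 against 4.31 to 5.13 (median 4.71), and COL4A5, a basement membrane collagen, 7.60 and 7.88 against 3.64 to 4.02 (median 3.78); the first and second of them were above all 9 other lines. These matrix genes were chosen after their values were seen. Markers of other cell types gave no such picture. Of 15 fibroblast markers 1 was apart (FBLN1, higher, with a gap of 0.92, or 6.67% against 3.18% of all genes). Of 12 endothelial, 16 leukocyte and 15 hepatocyte markers 0 were, by limma in either direction and also at unadjusted p-values.

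Neural and neuroendocrine genes had 3 of 30 members apart and higher (10.0% against 3.18% of all genes) and 0 lower (limma; 1 lower at unadjusted p-values). SYT1, the calcium sensor of synaptic vesicles, read 11.02 and 11.11 in HCT116 and 4.26 to 7.78 (median 5.73) on the other MSI arrays. CPE, carboxypeptidase E, which processes peptide hormones, read 9.27 and 9.35 against 4.06 to 5.64 (median 4.38), and SCG2, a secretogranin of dense-core granules, 8.31 and 7.995 against 3.99 to 6.38 (median 5.13). All 3 were above all 9 other lines, with gaps to the nearest MSI line of 3.67, 3.83 and 1.82 (largest pair adjusted p in limma 1.53e-06, 4.20e-08 and 3.01e-04). The list's median difference was -0.04, and in 17 of the 30 genes HCT116 was under 5.67.

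Of 27 genes of MAPK output, 2 were apart and lower (7.41%, against 2.48% of all genes) and 1 higher (3.7% against 3.18%). The lower genes were SPRY1 and SPRY2, Sprouty inhibitors of receptor tyrosine kinase signalling, and the higher one ETV1, an ETS transcription factor. SPRY1 read 6.02 and 5.90 in HCT116 and 7.59 to 8.99 (median 7.95) on the other MSI arrays, and SPRY2 7.48 and 7.22 against 8.50 to 11.97 (median 9.76). Both were below all 9 other lines, with gaps of -1.87 and -1.34 (largest pair adjusted p in limma 2.22e-05 and 0.00377). ETV1 read 7.44 and 7.26 against 5.92 to 6.52 (median 6.37). LRIG1, which restrains EGFR family receptors, was the 1 of 16 genes of that list apart (6.25% lower against 2.48% of all genes). It was lower at 6.56 and 6.70 against 8.18 to 9.98 (median 8.84). In each of these 4 genes, chosen for being apart, the HCT116 arrays lay outside the range of the 8 others. Of 40 genes of TGF-beta and BMP signalling, 4 were lower (10.0% against 2.48% of all genes) and 1 higher (2.5% against 3.18%). SMAD7, an inhibitory SMAD, read 5.99 and 5.84 against 6.48 to 10.44 (median 7.87), SMAD9 6.96 and 6.66 against 7.88 to 10.48 (median 9.20), and the decoy receptor BAMBI 7.02 and 7.15 against 7.48 to 13.91 (median 8.49). LTBP1, which stores latent TGF-beta in the matrix, read 6.49 and 6.31 against 7.66 to 8.78 (median 8.16). Both HCT116 arrays were below all 8 others in these 4 genes, chosen for being apart, and SW48 spread the others most in SMAD7 and BAMBI. ID1, a BMP target, was the higher one, at 13.06 and 12.96 against 5.84 to 12.05 (median 11.46), and its gap of 0.99 was to SW48. For SMAD7 and BAMBI the nearest line was RKO.

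Of 46 Wnt genes, DKK1 and CD44 were higher (4.35% against 3.18% of all genes) and the receptors FZD1 and FZD7 lower (4.35% against 2.48%). The gaps were -0.61 and -0.59 for the receptors. TCF7L2, a transcription factor of the Wnt pathway, was higher in HCT116 at 12.85 and 12.81 against 10.63 to 12.31 (median 11.43), above all 9 other lines, and its 6 other probe sets were higher too, by 1.45 to 2.13. Of 25 intestinal transcription factors, 3 were lower (12.0% against 2.48% of all genes) and TCF7L2 was the 1 higher (4% against 3.18%). HES1, the Notch target, read 8.62 and 9.11 in HCT116 and 9.94 to 12.30 (median 10.45) elsewhere, HNF4G 5.64 and 5.30 against 6.89 to 9.71 (median 7.87), and FOXA1 5.01 and 5.26 against 5.83 to 8.27 (median 6.46). HNF4G and FOXA1 were under the median of all values in HCT116, and HES1 was not. CDX2, the master regulator of intestinal identity, was low without being apart, at 6.87 and 6.72 against 6.96 to 9.38 (median 7.50). No goblet or secretory gene of 34 and no CEA family gene of 11 was apart by limma. Of 40 brush border genes 1 was (ESPN, higher, gap 0.71, or 2.5% against 3.18% of all genes). Unadjusted p-values in limma added none to these 3 lists.

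Cell death genes had 6 of 37 members apart and higher (16.2% against 3.18% of all genes) and 2 lower (5.41% against 2.48%). GSDME, a gasdermin that forms membrane pores when cleaved by caspases, was the 1 that passed the fit over lines: it read 8.15 and 7.91 in HCT116 and 4.22 to 4.78 (median 4.41) on the other MSI arrays, a difference of 3.62 (SE 0.19, limma adjusted p = 0.0122). Some MSS arrays were as high, up to 9.68. BIK and PMAIP1, which encode pro-apoptotic BH3-only proteins, read 11.004 and 10.81 against 7.52 to 9.51 (median 8.99) and 12.02 and 12.07 against 7.48 to 11.19 (median 9.94), with gaps of 1.46 and 0.93. BCL2L11, DIABLO and TNFRSF10C were the other higher members. MLKL and RIPK3, the effector and the kinase of necroptosis, were the 2 lower ones: MLKL read 8.07 and 7.84 against 8.42 to 9.38 (median 8.96), and RIPK3 had an HCT116 mean of 5.38 with 8.18 in LS174T, 6.16 in SW48, 5.998 in RKO and 6.85 in LIM2405. RIPK3 was thus under the median of all values in HCT116.

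Among genes known as targets of promoter methylation in colon cancer, 3 of 47 were higher (6.38% against 3.18% of all genes) and 1 lower (2.13% against 2.48%), so the list as such lay near the background and its members are given as single genes. RASSF2, a Ras effector, read 6.86 and 6.52 in HCT116 and 3.96 to 4.45 (median 4.27) on the other MSI arrays, a difference of 2.47 (SE 0.18, limma adjusted p = 0.028), and was above all 9 other lines; TWIST1 was the second. CDKN2A, the locus of the p16 inhibitor of G1 kinases, was the third, at 9.62 and 9.72 against 6.15 to 8.26 (median 6.87), a gap of 1.41 (largest pair adjusted p in limma 0.00173). Its 2 dimmer probe sets differed from the mean of the 4 lines by 1.25 and 0.11. In the first of these 2, LIM2405, at 7.76, was above HCT116, at 6.98, so the call did not hold there. TMEFF2 was lower, at 5.28 and 5.51 against 6.03 to 7.96 (median 7.07). In the probe sets that represent these 4 genes, chosen for being apart, HCT116 did not overlap the other MSI lines. Of 49 genes of drug metabolism and efflux, ABCC2, ABCC4 and ALDH3B1 were higher (6.12% against 3.18% of all genes) and GSTT1 lower (2.04% against 2.48%). ABCC2, a conjugate exporter, read 7.88 and 7.59 against 4.62 to 6.19 (median 5.12). CYP24A1, the enzyme that inactivates vitamin D (named after its values were seen), read 8.17 and 8.02 against 3.40 to 3.89 (median 3.59), a difference of 4.51 (SE 0.20, limma adjusted p = 0.0112), and GPAT2, a testis-expressed acyltransferase chosen likewise, 9.24 and 9.31 against 4.19 to 5.34 (median 4.71), a difference of 4.53 (SE 0.30, limma adjusted p = 0.0198). Neither CYP24A1 nor GPAT2 was above background in any of the 9 other lines. IL32, a cytokine of epithelium and lymphocytes, was lower at 4.76 and 5.53 against 7.48 to 10.92 (median 10.31), while MIF, another cytokine, was higher at 13.73 and 13.41 against 11.998 to 12.82 (median 12.57). IGFBP2, which binds insulin-like growth factors, read 11.14 and 11.42 against 5.94 to 9.04 (median 8.10), and GRB10, an adaptor that restrains their receptor, 9.28 and 9.21 against 9.92 to 11.18 (median 10.52). In all 4 genes, chosen for being apart, the HCT116 arrays lay outside the range of the 8 others.

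The rest of the lists had 0 to 3 members apart in either direction. Over all genes 3.18% were apart and higher and 2.48% lower. Several lists lay near these shares, among them hypoxia and glycolysis (2.7% each way), HOX genes (3.57% higher) and p53 targets (3.12% lower). Proliferation genes (5.56% higher) and the list of tumour cell proteases and the plasminogen system (8.82% higher) lay above them. Members are given here as single genes. Of 36 proliferation genes 2 were higher (KIF20A and TYMS, gaps 0.82 and 0.96) and 0 lower by limma. At unadjusted p-values in limma 4 were higher and 0 lower. Their median difference was 0.66, and 12 of 36 were above all 4 lines without a test, against 2751 of all 19775 genes (13.9%). Of 34 genes of the protease list, the inhibitor CST6 and the proteases KLK8 and MMP7 were higher. MMP7 was near background in HCT116, at 5.59 and 5.86, while MSS arrays reached 10.26. Of 28 HOX genes HOXC9 was higher, of 26 integrin and laminin genes ITGA3, and of 20 Eph genes EFNA2, with EFNA5 lower. ALDOC was higher and HK1 lower of 37 hypoxia and glycolysis genes, and the stem and oncofetal list had PEG10 higher of 24. TIGAR, lower, was the 1 of 32 p53 targets apart. By limma, 0 of 11 metallothioneins and 0 of 24 cholesterol synthesis genes were apart in either direction, adjusted or not, and their median differences were 0.34 and -0.01. Of 36 genes with coding repeats that shift frame in MSI cancer, 1 was apart, TCF7L2. CDKN2A and CCND2 were the 2 of 22 G1 regulators apart, ABCC2 the 1 of 23 NRF2 targets, MIF and IL32 the 2 of 38 chemokine and cytokine genes, and IGFBP2 and GRB10 the 2 of 20 IGF genes.

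**Figure D4:**
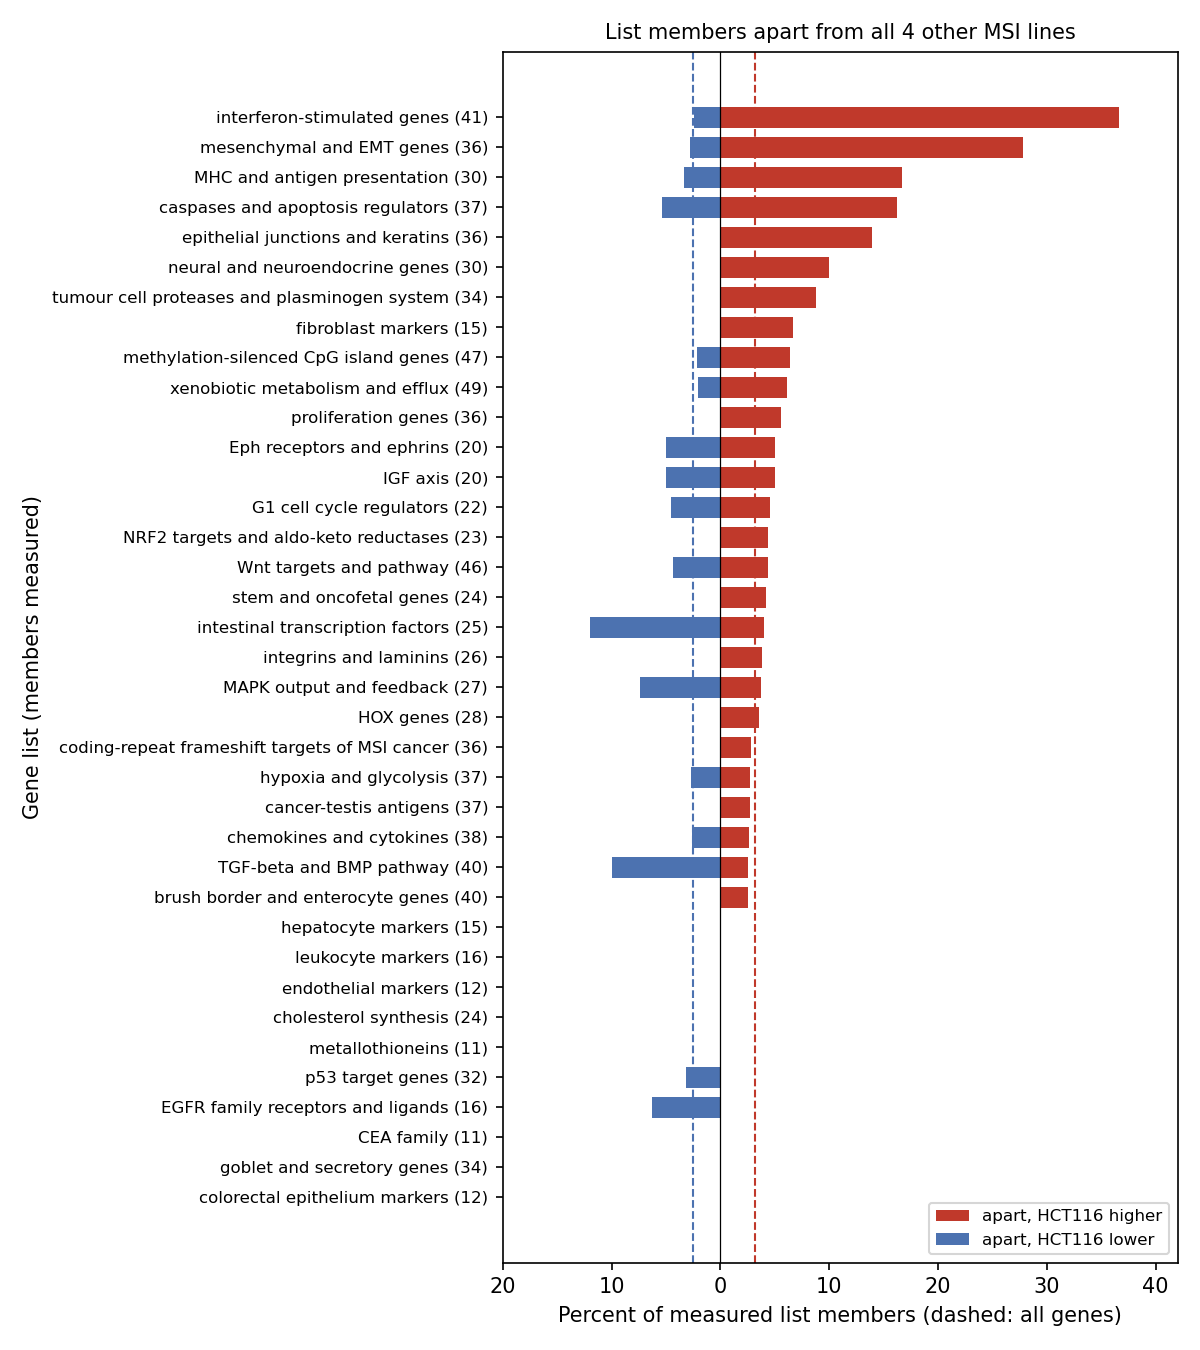
Bars give the percent of each list's measured members (their number in brackets) that were apart from all 4 other MSI lines in the duplicate fit, higher in HCT116 to the right and lower to the left; dashed lines mark the shares over all genes, 3.18% and 2.48%. Interferon-stimulated genes (36.6%) and mesenchymal genes (27.8%) have the longest bars to the right, and intestinal transcription factors (12.0%) and TGF-beta and BMP genes (10.0%) the longest to the left.

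Some genes apart in HCT116 lie next to each other; these groups were noticed after the values were seen. HBE1 sits in the beta-globin locus among olfactory receptor genes. OR51B4 read 8.78 and 8.70 in HCT116 against 4.09 to 4.44 (median 4.33), a difference of 4.43 (SE 0.19, limma adjusted p = 0.0112), and OR51B5 was apart by a smaller gap of 0.67. OR51B2 lay above the 4 lines by 0.59 without passing (largest pair adjusted p in limma 0.0575). HBB, the adult beta chain, read 6.09 and 5.94 against 5.79 to 6.29 (median 5.89), HBD 4.86 and 5.03 against 4.75 to 5.35 (median 4.90), and BGLT3 5.47 and 5.56 against 5.08 to 5.74 (median 5.40). HBBP1 read 4.57 and 4.25 and OR51B6 4.21 and 4.03, and none of these 5 neighbours was apart. SGCE and PEG10, a pair of imprinted genes that share a promoter region, were both higher: SGCE read 8.44 and 8.21 against 3.86 to 4.26 (median 4.09), a difference of 4.26 (SE 0.18, limma adjusted p = 0.0112), and PEG10 6.53 and 6.78 against 4.77 to 5.26 (median 5.10), a gap of 1.44. Some MSS arrays were above HCT116 in both, up to 10.59 for SGCE and 13.31 for PEG10. The other probe set of PEG10 differed from the mean of the 4 lines by 4.07. CASD1, on the other side of SGCE, was lower at 6.53 and 6.41 against 7.64 to 8.89 (median 8.47), a gap of -1.51. CCND2 and TIGAR, neighbours in the genome, were both lower, and TIGAR, a p53-induced regulator of glycolysis, read 7.68 and 7.52 against 8.75 to 10.32 (median 9.77), below all 9 other lines.

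By chromosome, among genes whose mean over the MSI lines was at or above 5.67, the median difference ran from 0.11 on chromosome 17 to -0.20 on chromosome 7, with -0.02 over all of them. On chromosome 17, 5.66% of 795 genes were apart and higher and 2.01% lower. On chromosome 7, 2.59% of 617 were higher and 6.48% lower. Over all such genes the shares were 3.49% and 3.73%.

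Set beside its peers under the same rules, HCT116 was not the line with the most genes apart. Against the other 4 MSI lines, 1308 genes were apart and higher in LS174T and 779 lower, and LIM2405 had 1004 and 758. RKO had 697 and 656, HCT116 628 and 491, and SW48 493 and 537. In the fit over lines LS174T had 181 higher and 27 lower, HCT116 74 and 4, RKO 19 and 4, LIM2405 8 and 0, and SW48 4 and 0. The duplicate spread differs between the lines, so these counts describe the panel and were not tested against each other. In single pairs, limma called 26.4% of genes between HCT116 and SW48, 29.4% against RKO, 33% against LS174T and 34.2% against LIM2405.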

How the data were processed

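Total RNA of 19 cultures of 10 cell lines was purified on columns and hybridised to Affymetrix arrays after one-cycle biotin labelling, per the labels' protocols. The authors deposited log2 values made with RMA, according to the submitters' processing notes, a method of background correction, quantile normalization and probe summary. No version of RMA is given in the sources used here. These values run from 2.78 to 14.92, and no normalization was added. Arrays give no counts or depth, and their number limits the precision.

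Of 54675 probe sets, 62 controls were left out, and 41091 name 1 gene in the platform annotation, 1801 several and 11721 none here. Of the first, 41037 matched a RefSeq gene table of GRCh38.p14, used for names, chromosomes and neighbours. Where several single-gene probe sets measure a gene, the one brightest on average in the 10 lines stands for it (19775 genes), with no filter on dim values. Y-linked genes and XIST are not reported.

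Both fits used limma 3.58.1 (lmFit, eBayes, two-sided, Benjamini-Hochberg over all genes, threshold 0.05) in R 4.3.3. One compared line means, HCT116 minus the mean of 4 lines. The other used 10 arrays with a mean per line and asked for all 4 pairs; its p-values measure the spread between duplicate cultures. Both were tested on simulated data. The gap is the difference to the nearest of the 4 lines.

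The lines compared, the 37 gene lists and the tests were chosen with earlier results of these data known, and some lists came from an earlier analysis of them. Named genes were, in each direction, the 15 largest differences in the fit over lines and the 15 largest gaps, the list members past the fit over lines or with the 5 largest gaps, and the epithelium markers. Genes outside this rule are marked in the text as chosen after their values were seen, or are the remaining members of a list. The alternatives tried were arrays centred on their median, another round of quantile normalization, other probe set rules, a filter on dim genes, trend and robust moderation, other sources of spread, a culture-number block, a minimum gap, and leaving out each line or HCT116 array. Their counts for the interferon and mesenchymal lists were added after the data were seen.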

Additional observations from a re-analysis of the deposited data

Results flagged for a closer look

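In these genes 1 of the 4 other MSI lines lay far from the remaining 3, by Dixon's test on the line values. Chance flags about 1 in 20 such groups, and the named genes examined are many, so single flags carry little weight. The odd line is part of what HCT116 was compared with.

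RKO was the odd line in 6 genes. It was low for the epithelial genes CDH1 (3.95, the other 3 at 12.62 to 13.09), EPCAM (6.15 against 12.85 to 13.51), KRT19 (4.81 against 11.51 to 12.61) and KRT18 (12.81 against 14.01 to 14.06). It was also low for ID1 (5.95 against 11.11 to 12.03) and, by little, for ARFGEF3 (9.65 against 9.76 to 9.78).

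LS174T was the odd line in 8 genes. It was high for the intestinal genes GPA33 (12.35 against 5.69 to 5.79), LGALS4 (13.45 against 4.80 to 5.26) and KRT20 (6.47 against 5.11 to 5.33). It was high for CASP1, an inflammatory caspase looked at after its values were seen (10.67 against 6.15 to 6.49). It was nearest to HCT116 in DKK1 (6.62 against 3.96 to 4.31), MSN (6.14 against 3.86 to 4.11) and RASGEF1A (4.23 against 3.87 to 3.91), and farthest from it in SPRY1 (8.91 against 7.83 to 7.94).

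LIM2405 was the odd line in BDNF (5.86 against 5.23 to 5.33) and in SCCPDH (10.52 against 10.08 to 10.09). In both the distance to HCT116 was several times larger than the step between the other lines.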

How the results depend on the processing

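The count of 78 genes past the fit over lines was 0 without any 1 of the 4 other lines, 10 with dim genes left out and 187 with the line as a random block over arrays. It ranged from 0 to 81 over the fits that left out a line or an HCT116 array. The count of 1119 genes apart in the duplicate fit ranged from 706 to 2017 over the fits that left out an HCT116 array or a line, and was 453 with a minimum gap of 1 log2. Fits without a line ask for 3 pairs, and those without an HCT116 array have less data on it. Culture numbers did not pair the arrays: duplicate differences of 2 lines correlated at -0.07 to 0.17, with 3 of 10 pairs over 0.1, and with the replicate block 1114 genes were apart. Of the named genes, AGMAT turned to 0.0316 and KRT7 to -0.14 with the brightest probe set whose name marks no shared sequence. All 32 named genes past the fit over lines were lost without any 1 line, and 15 when all 10 lines gave the spread, while the sizes of their differences ran from 2.04 to 8.17 without a line, against 2.05 to 7.99 with all lines. Probe set choice mattered too: 4 of 32 were lost with the largest interquartile range and 5 of 32 with the mean of all probe sets. With the brightest probe set whose name marks no shared sequence, 2 of 27 were lost. The smallest sizes under these 3 rules were 1.18, 1.19 and 0.0867. The interferon count of 15 was 11 to 18 under the other settings, and 8 with a minimum gap of 1 log2; the mesenchymal count of 10 was 7 to 12. Low signal limits dim genes, where a difference is understated.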
